A study of Mus musculus with 8 samples.

Results

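The dual-specificity MAPK phosphatases (MKPs) are described here in mouse skeletal muscle with knockdown of *Uba1*, the gene of the main ubiquitin-activating enzyme. The family was taken as the rows of the mouse expression table named *Dusp1*, *Dusp2*, *Dusp4*, *Dusp5*, *Dusp6*, *Dusp7*, *Dusp8*, *Dusp10* or *Dusp16*, which are 9 of 41709 genes. All 9 were among the 11530 genes that were tested, because they reached 1 TPM in 4 or more of the 8 muscles (TPM are transcript abundances scaled to the same total in each muscle), although *Dusp2* and *Dusp4* reached 1 TPM in only 7 and 5 of the 8 muscles, respectively. The RNA was extracted from TA muscles (tibialis anterior, a shin muscle) of male C57BL/6J mice aged 3 months, 7 days after pools of siRNAs were electroporated into them. In each of 4 mice, one leg received siRNAs against *Uba1* and the other non-targeting control siRNAs (NT siRNAs). Both groups therefore went through injection and electroporation, and no muscle that was left alone is part of the comparison. The equally numbered muscles (pairs 1 to 4) are the 2 legs of a mouse. The NT siRNAs were always in the right leg and the *Uba1* siRNAs always in the left leg, so that leg and siRNA cannot be told apart. The treatment tags of the muscles with *Uba1* siRNAs in pairs 2, 3 and 4 read UBA2, UBA3 and UBA4, whereas their titles and descriptions read UBA1.

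MKPs inactivate the MAP kinases ERK, JNK and p38 by removing phosphate from the threonine and the tyrosine of the activation loop. *Dusp1*, *Dusp2*, *Dusp4* and *Dusp5* encode nuclear phosphatases whose transcription is induced by the kinases that they switch off, *Dusp6* and *Dusp7* encode cytoplasmic phosphatases that prefer ERK, and *Dusp8*, *Dusp10* and *Dusp16* encode phosphatases that prefer JNK and p38. Because MAPK signaling induces several of these genes, their mRNAs are often read as a record of recent MAPK activity, although mRNA stability and other transcription factors also set their levels.

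*Uba1* mRNA was at 60.6, 59.0, 63.6 and 59.1 TPM with NT siRNAs and at 18.1, 6.77, 15.8 and 23.1 TPM with *Uba1* siRNAs, in pairs 1 to 4. The groups did not overlap, and pair 4 kept the most and pair 2 the least *Uba1* mRNA. The log2 fold change (log2FC), which is the difference of mean log2(TPM + 1) between *Uba1* and NT siRNAs, was -1.98 for *Uba1* (standard error 0.290, adjusted p = 0.0527 from limma). P-values were adjusted over all genes tested by the Benjamini-Hochberg method. The log2FC was above 0 for 81.8% of all genes tested, with a median of 0.11. With median-ratio scaling, which sets the typical gene equal between muscles, the median was 0.0016 and the share above 0 was 50.7%. Mitochondrial transcripts took 42.1% to 45.7% of the TPM with NT siRNAs and 39.9% to 50.3% with *Uba1* siRNAs. The 12 muscle fibre markers summed to 150271 to 166065 TPM with NT siRNAs and to 118827 to 167957 TPM with *Uba1* siRNAs. Of these 12, 0 passed an unadjusted P of 0.05 in limma in either direction with the TPM as deposited, and 5 were lower with median-ratio scaling, with a median log2FC of -0.19. The differences of the phosphatases are therefore given under both scalings. TPM do not retain the number of reads, and with whole muscle fewer cells of a type and less RNA per cell cannot be told apart.

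No MKP passed an adjusted p of 0.05 in limma, compared with 0.0260% of all genes tested. At an unadjusted P under 0.05, *Dusp5* and *Dusp2* were lower with *Uba1* siRNAs and *Dusp6* was higher, while the other 6 did not pass. The 2 lower members of 9 stand beside 1.98% of all genes tested that were lower at this threshold, and the single higher member beside 16.0% that were higher. With median-ratio scaling the background turned to 6.18% lower and 4.43% higher, with 3 members lower (*Dusp8* in addition) and 1 higher. On that scale 5 of the 12 muscle fibre markers were also lower, and their part in these counts was not tested. The median log2FC of the 9 genes was -0.13 with the TPM as deposited and -0.21 with median-ratio scaling. With the pair as a block, the same 2 members were lower and 2 were higher (*Dusp6* and *Dusp7*), beside 2.80% and 22.4% of all genes tested. No member passed an adjusted p of 0.05 in limma with the block or with median-ratio scaling either, beside 0.494% and 0.199% of all genes tested. With the block and median-ratio scaling together, 5 members were lower (*Dusp2*, *Dusp4*, *Dusp5*, *Dusp8* and *Dusp16*) and 2 were higher (*Dusp6* and *Dusp7*) at an unadjusted P under 0.05, beside 8.76% and 6.96% of all genes tested. By the Kruskal-Wallis test, 1 member was lower (*Dusp5*) and 1 was higher (*Dusp6*) at this threshold, beside 1.71% and 17.5% of all genes tested.

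**Figure D1:**
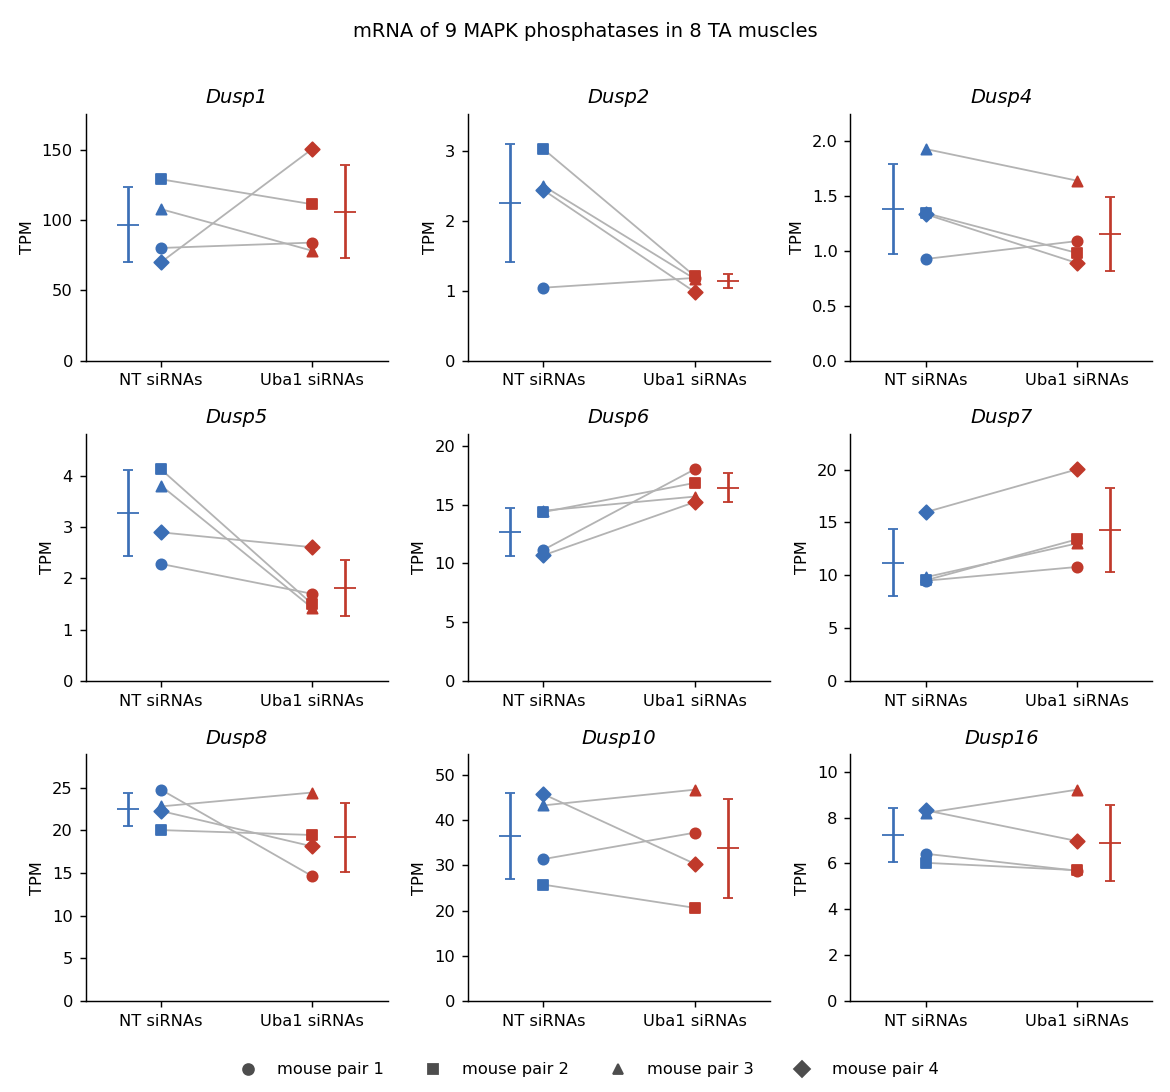
TPM (vertical axes, linear and starting at 0) of each of the 9 phosphatases in the 4 muscles with NT siRNAs (blue) and the 4 with *Uba1* siRNAs (red), with a line joining the 2 legs of a mouse and bars for the mean ± SD. *Dusp5* is lower in 4 of 4 pairs, as were 2.98% of all genes tested. The groups are separate for *Dusp6*, with at most 14.5 TPM for NT siRNAs and at least 15.2 TPM for *Uba1* siRNAs. Such a separation in this direction held for 10.6% of all genes tested, and the *Dusp6* groups overlapped with median-ratio scaling.

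Shown are the promoters of the 3 genes that passed the unadjusted threshold with the TPM as deposited and no block. Motifs bound by MAPK-responsive transcription factors are known in promoters of this family. The 250 bases before the transcription start were taken from RefSeq (build GRCm38.p6, whereas the TPM were made on GRCm39), on the coding strand. *Dusp5* is from chr19:53528895-53529144, *Dusp2* from chr2:127335909-127336158 and *Dusp6* from chr10:99262981-99263230, all on the plus strand. Capitals mark every match to the cAMP response element TGACGTCA (CRE), the short CRE core TGACG, the AP-1 motif TGANTCA, and the CArG box, which is bound by the serum response factor, searched on both strands. A CRE holds the core on either strand.
Dusp5: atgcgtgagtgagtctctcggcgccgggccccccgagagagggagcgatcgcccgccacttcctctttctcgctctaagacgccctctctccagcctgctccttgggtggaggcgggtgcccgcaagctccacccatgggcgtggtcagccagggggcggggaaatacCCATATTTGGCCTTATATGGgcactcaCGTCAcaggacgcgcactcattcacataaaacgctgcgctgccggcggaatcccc
Dusp2: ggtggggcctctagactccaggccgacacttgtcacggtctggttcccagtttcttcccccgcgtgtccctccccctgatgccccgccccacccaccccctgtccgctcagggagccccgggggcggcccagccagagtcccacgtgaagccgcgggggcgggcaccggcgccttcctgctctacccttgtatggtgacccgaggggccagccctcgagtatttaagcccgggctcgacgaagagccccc
Dusp6: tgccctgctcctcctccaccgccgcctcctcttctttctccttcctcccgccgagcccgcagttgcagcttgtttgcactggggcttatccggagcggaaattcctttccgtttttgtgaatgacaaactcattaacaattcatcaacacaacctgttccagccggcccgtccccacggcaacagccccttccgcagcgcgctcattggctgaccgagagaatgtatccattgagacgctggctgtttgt

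The *Dusp5* window holds 2 CArG boxes that adjoin without overlap, from 82 to 73 and from 72 to 63 bases before the start, followed by a CRE core from 55 to 51 bases before the start. The *Dusp2* and *Dusp6* windows hold no match to these motifs, and no other motif was searched. Of 32851 promoters in the table, 1.47% hold a CArG box, 17.8% a CRE core, 6.75% the AP-1 motif and 1.55% a full CRE. Of the 8 phosphatases in the table (*Dusp4* had no entry), 1 holds a CArG box (*Dusp5*), 4 a CRE core (*Dusp1*, *Dusp5*, *Dusp8* and *Dusp16*), 0 the AP-1 motif, and 2 a full CRE. In *Dusp1* the CRE lies from 143 to 136 bases before the start. In *Dusp8* CREs lie from 107 to 100 and from 63 to 56 bases before it. With the TPM as deposited neither gene passed the unadjusted threshold, with a log2FC of 0.12 for *Dusp1* and -0.24 for *Dusp8*. With median-ratio scaling *Dusp8* passed it (log2FC -0.35, unadjusted P = 0.0332 from limma).

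Among the nuclear, inducible phosphatases, *Dusp5* and *Dusp2* were lower with *Uba1* siRNAs at an unadjusted P under 0.05, whereas *Dusp4* and *Dusp1* did not pass this threshold. *Dusp5*, which is specific for ERK (chromosome 19 of GRCm39, from 53517532 to 53530862), was at 2.28, 4.13, 3.81 and 2.90 TPM with NT siRNAs and at 1.70, 1.50, 1.42 and 2.61 TPM with *Uba1* siRNAs. It was lower in 4 of 4 pairs, as were 2.98% of all genes tested, by a factor that ranged from 0.364 in pair 2 to 0.900 in pair 4. The groups overlapped, because the muscle with *Uba1* siRNAs of pair 4 (2.61 TPM) was above the muscle with NT siRNAs of pair 1 (2.28 TPM). The mean was 3.28 ± 0.844 TPM with NT siRNAs and 1.81 ± 0.546 TPM with *Uba1* siRNAs (n = 4, SD), a ratio of 0.551. The log2FC was -0.60 (95% interval -0.99 to -0.22, unadjusted P = 0.00599, adjusted p = 0.167 from limma), and the exact permutation test gave p = 0.0571 (two-sided). With median-ratio scaling the log2FC was -0.69. When single muscles were left out, the unadjusted P of *Dusp5* remained under 0.05 in 8 of 8 limma fits, with log2FC between -0.73 and -0.51. With the TPM as deposited and 1 TPM added, *Dusp5* was the only member past the unadjusted P of 0.05 with a log2FC beyond 0.58, a limit that 0.833% of all genes tested passed in the lower direction.

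*Dusp2*, a phosphatase of ERK and p38 that is best known from activated leukocytes (chromosome 2, from 127177957 to 127180296), was at 1.04, 3.03, 2.50 and 2.44 TPM with NT siRNAs and at 1.18, 1.21, 1.17 and 0.986 TPM with *Uba1* siRNAs. It was lower in pairs 2, 3 and 4, by factors of 0.400, 0.469 and 0.404, but not in pair 1, in which the muscle with NT siRNAs was as low as the muscles with *Uba1* siRNAs. The groups therefore overlapped, as they did for *Dusp5*, whereas 1.01% of all genes tested were lower without overlap. The mean was 2.25 ± 0.849 TPM with NT siRNAs and 1.14 ± 0.104 TPM with *Uba1* siRNAs (SD, n = 4 each), a ratio of 0.505. The coefficient of variation was 37.7% with NT siRNAs and 9.10% with *Uba1* siRNAs. The log2FC was -0.56 (95% interval -0.99 to -0.14, unadjusted P = 0.0145, adjusted p = 0.193 from limma), and the exact permutation test gave p = 0.114 (two-sided). With median-ratio scaling the log2FC of *Dusp2* was -0.64 (unadjusted P = 0.00876, adjusted p = 0.278 from limma), which is beyond 0.58. On that scale *Dusp2*, *Dusp5*, *Dusp8* and *Dusp16* were lower in 4 of 4 pairs, as were 13.4% of all genes tested. Without the muscle with NT siRNAs of pair 1, the log2FC was -0.77 (adjusted p = 0.0562 from limma), and over all alternatives its adjusted p ranged from 0.0562 to 0.422. At about 1 TPM the added 1 TPM shrinks the difference, and with 0.1 TPM added instead the log2FC of *Dusp2* was -0.84 and that of *Dusp5* -0.83.

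As *Dusp2* is abundant in leukocytes, leukocyte and lymphocyte markers were compared. The 10 leukocyte markers summed to 119 to 373 TPM with NT siRNAs and to 115 to 393 TPM with *Uba1* siRNAs. Most of these sums was *Lyz2*, with means of 168 and 174 TPM, while the highest mean of the others was 12.5 TPM (*Cd68*, NT siRNAs). Of the 9 tested, 0 passed an unadjusted P of 0.05 in limma in either direction. Their log2FC was below 0 for 3 and above 0 for 6, from -0.56 for *Cd14* to 0.34 for *Cd52*. The 10 lymphocyte markers summed to 1.66 to 4.11 TPM and to 1.75 to 4.31 TPM, and each was too low to be tested. Neutrophil markers summed to 14.7 to 49.7 TPM and to 25.9 to 59.5 TPM, with *Camp* at 0 in all 8 muscles. Of the 3 neutrophil markers tested, 0 passed an unadjusted P of 0.05 in limma in either direction. With the pair as a block, 1 of these neutrophil markers was higher at this threshold, beside 22.4% of all genes tested. Their log2FC were 0.63 for *S100a8*, 0.51 for *Retnlg* and 0.46 for *S100a9*, compared with a median of 0.11 for all genes, and *Cxcr2*, which was not tested, was at 0.547 and 1.05 TPM. The summed levels of these lists overlapped between the groups, and whether the cells that express *Dusp2* differed was not tested.

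With NT siRNAs, *Dusp4*, a phosphatase of ERK and JNK, had the lowest mean level of the 9 genes, and *Dusp1*, which acts on p38, JNK and ERK, had the highest. *Dusp4* (chromosome 8, from 35274442 to 35287048) was at 0.926, 1.34, 1.93 and 1.33 TPM with NT siRNAs and at 1.09, 0.980, 1.64 and 0.889 TPM with *Uba1* siRNAs. It was lower in 3 of 4 pairs and overlapped throughout, with a log2FC of -0.14 (95% interval -0.48 to 0.19, adjusted p = 0.598 from limma). With both the pair as a block and median-ratio scaling, the log2FC of *Dusp4* was -0.21 (95% interval -0.42 to -0.013, unadjusted P = 0.0402, adjusted p = 0.297 from limma). *Dusp1* (chromosome 17, from 26724564 to 26781102) was at 80.2, 129, 108 and 70.1 TPM with NT siRNAs and at 84.0, 111, 78.3 and 151 TPM with *Uba1* siRNAs. The pairs pointed both ways, from a ratio of 0.726 in pair 3 to 2.15 in pair 4, and the mean was 96.8 ± 26.8 against 106 ± 33.0 TPM (SD, n = 4 each). The log2FC of *Dusp1* was 0.12 (95% interval -0.42 to 0.66, adjusted p = 0.783 from limma), and it was 0.0023 with median-ratio scaling. Its sign rested on pair 4, since the log2FC was -0.061 without the muscle with *Uba1* siRNAs and -0.017 without the muscle with NT siRNAs of that pair. The muscle with *Uba1* siRNAs of pair 4 had the most *Uba1* mRNA of its group (23.1 TPM) and also the most *Dusp1*, *Dusp5* and *Dusp7* and the least *Dusp2*, *Dusp4* and *Dusp6* mRNA. The data do not separate *Dusp1* from no difference, and its interval also holds a log2FC as low as -0.42.

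The cytoplasmic, ERK-selective phosphatases were both higher with *Uba1* siRNAs in 4 of 4 pairs with the TPM as deposited, as were 32.2% of all genes tested, and of these *Dusp6* passed an unadjusted P of 0.05. With median-ratio scaling both were higher in 3 of 4 pairs, as pair 3 turned for *Dusp6* and pair 1 for *Dusp7*. *Dusp6*, the best studied feedback inhibitor of ERK (chromosome 10, from 99086564 to 99103361), was at 11.2, 14.4, 14.5 and 10.7 TPM with NT siRNAs and at 18.0, 16.8, 15.7 and 15.2 TPM with *Uba1* siRNAs. The groups did not overlap with the TPM as deposited, which was the case in this direction for 10.6% of all genes tested. The means were 12.7 ± 2.03 and 16.4 ± 1.25 TPM (SD, n = 4 each), a ratio of 1.30. The log2FC was 0.36 (95% interval 0.11 to 0.61, unadjusted P = 0.00913, adjusted p = 0.177 from limma), and the exact permutation test gave a two-sided p of 0.0286, the lowest value possible with 4 muscles in each group. This test treats the 8 muscles as independent, and swaps within the 4 pairs could not give a two-sided p under 0.125. With median-ratio scaling the log2FC of *Dusp6* was 0.25 (95% interval 0.0034 to 0.49, adjusted p = 0.460 from limma), with the median of all genes then at 0.0016. On that scale *Dusp6* was at 11.6, 15.2, 14.6 and 11.3 with NT siRNAs and at 16.1, 17.4, 14.0 and 15.4 with *Uba1* siRNAs, so that the groups overlapped and the exact permutation test gave p = 0.114 (two-sided). The largest ratios were in pair 1 (1.61) and pair 4 (1.42), in which the muscles with NT siRNAs had the lowest *Dusp6* levels. The smallest was in pair 3 (1.08).

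*Dusp7* (chromosome 9, from 106245143 to 106252923) was at 9.48, 9.53, 9.82 and 16.0 TPM with NT siRNAs and at 10.8, 13.4, 13.0 and 20.0 TPM with *Uba1* siRNAs. Both legs of pair 4 were high and the other muscles of a group lay close together. The ratios within the pairs were 1.14, 1.41, 1.33 and 1.25. The log2FC was 0.33 (standard error 0.204, 95% interval -0.13 to 0.79, unadjusted P = 0.144, adjusted p = 0.396 from limma). With the pair as a block in the fit, the standard error of *Dusp7* was 0.0706 (95% interval 0.16 to 0.49, unadjusted P = 0.00225, adjusted p = 0.0831 from limma), and 22.4% of all genes tested were higher at an unadjusted P under 0.05. With median-ratio scaling the log2FC of *Dusp7* was 0.21 (95% interval -0.31 to 0.74, unadjusted P = 0.378, adjusted p = 0.794 from limma). With both median-ratio scaling and the block, its unadjusted P was 0.0338 (adjusted p = 0.282 from limma). *Dusp9*, the remaining gene of this class, was too low to be tested, with at most 0.0699 TPM in any muscle with NT siRNAs.

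**Figure D2:**
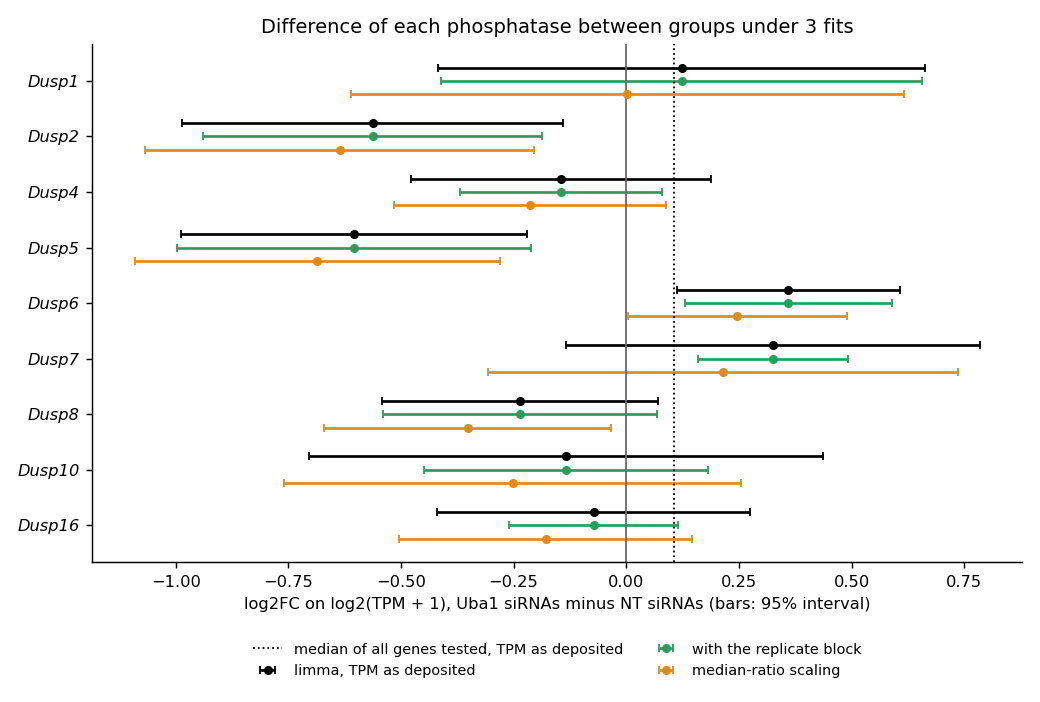
The log2FC on log2(TPM + 1) of each phosphatase (horizontal axis), for *Uba1* siRNAs minus NT siRNAs, with 95% intervals, from limma on the TPM as deposited (black), with the pair as a block (green) and with median-ratio scaling (orange); the dotted line is the median of all genes tested (0.11). The intervals of *Dusp2* and *Dusp5* lie below 0 and that of *Dusp6* above 0 in the 3 fits, whereas the interval of *Dusp7* excludes 0 only with the block and that of *Dusp8* only with median-ratio scaling.

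Of the phosphatases of JNK and p38, *Dusp8*, *Dusp10* and *Dusp16* had negative log2FC that did not pass the unadjusted threshold with the TPM as deposited. *Dusp8* (chromosome 7, from 141633226 to 141649580) was at 24.7, 20.0, 22.8 and 22.3 TPM with NT siRNAs and at 14.6, 19.4, 24.4 and 18.1 TPM with *Uba1* siRNAs. The groups overlapped, with pair 1 the lowest ratio (0.592) and pair 3 above 1 (1.07). The log2FC of *Dusp8* was -0.24 (95% interval -0.54 to 0.070, adjusted p = 0.364 from limma), and with median-ratio scaling it was -0.35 (unadjusted P = 0.0332, adjusted p = 0.420 from limma).

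*Dusp10* (chromosome 1, from 183745499 to 183807842) was at 31.3, 25.7, 43.2 and 45.7 TPM with NT siRNAs and at 37.2, 20.6, 46.7 and 30.3 TPM with *Uba1* siRNAs. Pair 2 was low and pair 3 high in both legs, and 2 of 4 pairs were higher. The log2FC of *Dusp10* was -0.13 (95% interval -0.70 to 0.44, adjusted p = 0.777 from limma), which turned to 0.075 without the muscle with *Uba1* siRNAs of pair 2 and was -0.25 with median-ratio scaling. *Dusp16* (chromosome 6, from 134692431 to 134784241) was at 6.42, 6.03, 8.20 and 8.31 TPM with NT siRNAs and at 5.68, 5.71, 9.21 and 6.98 TPM with *Uba1* siRNAs. Its ratios within pairs ranged from 0.839 to 1.12, and its log2FC was -0.073 (95% interval -0.42 to 0.27, adjusted p = 0.800 from limma). With median-ratio scaling the log2FC of *Dusp16* was -0.18, and with the block in addition its unadjusted P was 0.0466 (adjusted p = 0.312 from limma).

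TPM are scaled by transcript length, which allows levels of different genes to be ordered. With NT siRNAs the order of mean TPM was *Dusp1*, *Dusp10*, *Dusp8*, *Dusp6*, *Dusp7*, *Dusp16*, *Dusp5*, *Dusp2* and *Dusp4*. Neighbors in this order whose ranges overlapped with NT siRNAs were *Dusp6* and *Dusp7* (in this order in 3 of 4 muscles), *Dusp5* and *Dusp2* (4 of 4), and *Dusp2* and *Dusp4* (4 of 4). With *Uba1* siRNAs *Dusp2* was above *Dusp4* in 3 of 4 muscles, and their means were 1.14 and 1.15 TPM, respectively. The 9 mRNAs summed to 194 ± 23.8 TPM with NT siRNAs and to 201 ± 31.1 TPM with *Uba1* siRNAs (SD, n = 4 each). *Dusp1* made up 49.4% ± 8.86 of the sum with NT siRNAs and 52.2% ± 9.38 with *Uba1* siRNAs. *Dusp5* made up 1.67% ± 0.245 and 0.891% ± 0.151, and *Dusp6* made up 6.52% ± 0.384 and 8.38% ± 1.72. *Dusp1* was thus the largest share in both groups, while *Dusp2* and *Dusp5* were among the smallest.

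Ratios of 2 genes inside a muscle do not depend on how the muscle is scaled, and those to *Dusp6* are given as a description, as they were chosen after the values had been seen. The ratio of *Dusp5* to *Dusp6* was 0.205, 0.287, 0.263 and 0.271 with NT siRNAs and 0.0944, 0.0890, 0.0908 and 0.171 with *Uba1* siRNAs. The ratio of *Dusp2* to *Dusp6* was 0.0936, 0.211, 0.173 and 0.228 with NT siRNAs and 0.0658, 0.0720, 0.0748 and 0.0648 with *Uba1* siRNAs. Neither ratio overlapped between the groups, but separation was favored by the choice of 2 members with lower mRNA over 1 with higher mRNA. The ratio of *Dusp4* to *Dusp6* was 0.109 ± 0.0241 and 0.0704 ± 0.0228 and that of *Dusp1* to *Dusp6* was 7.54 ± 1.03 and 6.54 ± 2.40 (SD, n = 4 each), both with overlap.

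**Figure D3:**
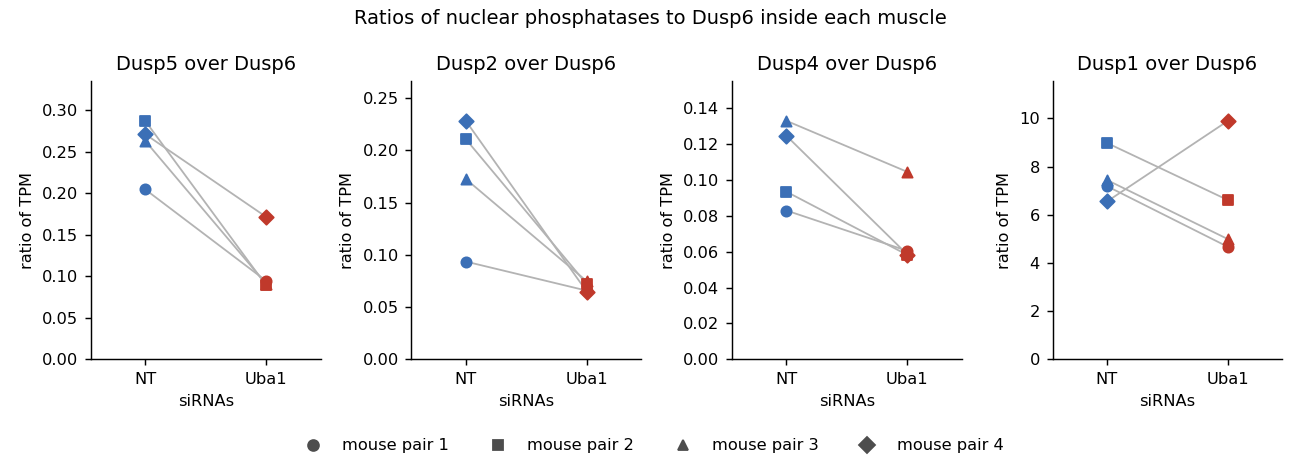
Ratio of the TPM of *Dusp5*, *Dusp2*, *Dusp4* and *Dusp1* to that of *Dusp6* inside each muscle (vertical axes, linear and starting at 0), for NT siRNAs (blue) and *Uba1* siRNAs (red), with a line joining the 2 legs of a mouse. For *Dusp5* and *Dusp2* the groups are separate, and for *Dusp1* pair 4 is at 6.55 and 9.90 while the other pairs are lower with *Uba1* siRNAs.

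The spread between muscles of a group limited what could be seen. The SD of log2(TPM + 1) within groups was 0.139 for the median gene tested. It was 0.436 for *Dusp10*, 0.412 for *Dusp1* and 0.346 for *Dusp7*, above 95.8%, 95.3% and 92.5% of all genes tested. *Dusp6* varied the least of the family (0.169, above 64.4% of genes). Within the groups, the pattern over the 8 muscles was most alike for *Dusp1* and *Dusp5* (Pearson correlation 0.83 of log2(TPM + 1) after removal of the group means) and for *Dusp10* and *Dusp16* (0.80), whereas *Dusp6* and *Dusp7* ran opposite to each other (-0.65). These muscles share their mice between groups and the correlations are descriptions.

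**Figure D4:**
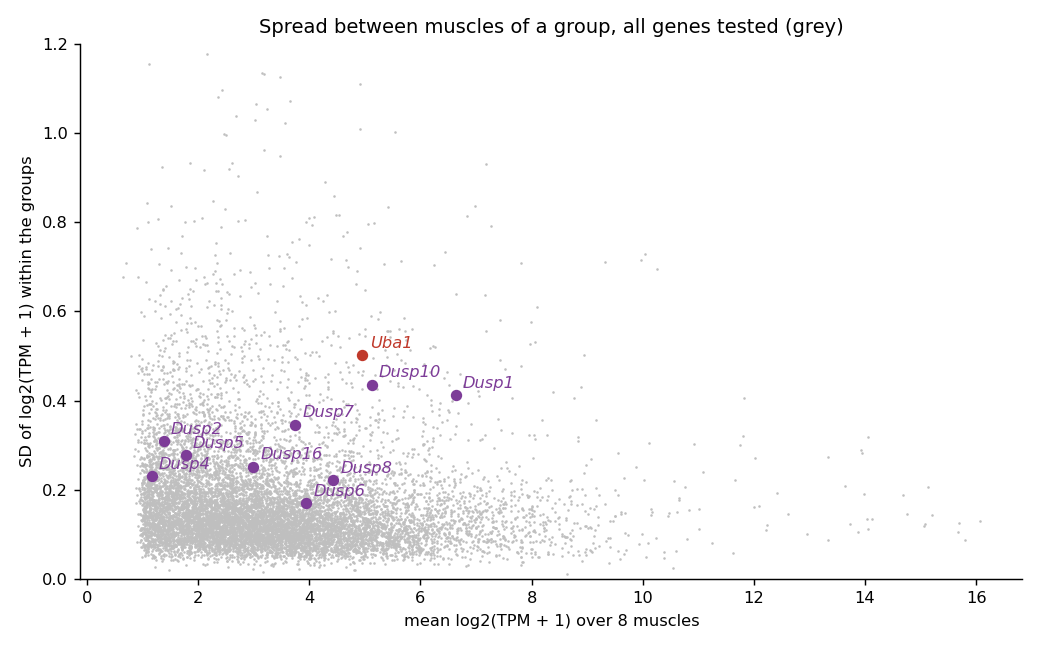
Spread within groups (SD of log2(TPM + 1), vertical axis) against mean log2(TPM + 1) over 8 muscles (horizontal axis) for all genes tested (grey), the 9 phosphatases (purple) and *Uba1* (red); 2 genes lie above the plotted range of 1.2. Of the 9 phosphatases, *Dusp10* (0.436) and *Dusp1* (0.412) are the highest and *Dusp6* (0.169) the lowest. Over genes of all levels, the spread of *Dusp10* is above 95.8% and that of *Dusp6* above 64.4% of those tested.

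The genes whose pattern within the groups was most alike to each phosphatase were taken from all genes tested. For *Dusp1* they were *Nfkbid*, *Zfp36* and *Zfp747* (Pearson correlations over 8 muscles of 0.969, 0.956 and 0.943), and for *Dusp5* they were *Gpr132*, *Cxcl2* and *Gpr19* (0.975, 0.973 and 0.946). *Nfkbid* encodes a nuclear regulator of NF-kB, *Zfp36* an RNA-binding protein that destabilizes mRNAs, and *Cxcl2* a chemokine. For *Dusp2* they were *Vars*, *Mc5r* and *Tmco6* (0.958, 0.955 and 0.944), and for *Dusp4* they were *Lrig2*, *Baz1a* and *Kmt5a* (0.989, 0.977 and 0.976). For *Dusp6* they were *Lipo3*, *Cited2* and *Sec11c* (0.977, 0.935 and 0.932). For *Dusp7* they were *Narf*, *Hlf* and *Mid1ip1* (0.985, 0.981 and 0.981), of which *Hlf* encodes a transcription factor with circadian expression. For *Dusp8* they were *Nod1*, *Sbf2* and *Hmgxb3* (0.993, 0.982 and 0.979), for *Dusp10* they were *N4bp2l2*, *Mbtps2* and *Ass1* (0.997, 0.989 and 0.987), and for *Dusp16* they were *Zfp516*, *Nol8* and *Gm36995* (0.985, 0.984 and 0.979). Each is the highest of 11530 genes over 8 muscles, and its size is no finding.

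No gene of the kinase cascade on which the phosphatases act passed an adjusted p of 0.05 in limma. At an unadjusted P under 0.05, the counts of these lists stand beside 1.98% of all genes tested that were lower and 16.0% that were higher. Of 10 MAP kinases tested, 0 were lower and 2 were higher at an unadjusted P under 0.05, *Mapk14*, which encodes p38-alpha, and *Nlk*. *Mapk14* was at 62.7 ± 2.73 and 73.5 ± 5.31 TPM (SD, n = 4 each) and had the highest log2FC of the list (0.22, adjusted p = 0.181 from limma), and *Mapk6*, an atypical MAP kinase, had the lowest (-0.18). Of 7 MAP kinase kinases, 2 were higher, with log2FC from -0.17 for *Map2k6*, an activator of p38, to 0.22 for *Map2k1*, an activator of ERK. Of 18 MAP3 kinases tested, 1 was lower and 6 were higher. The lower gene was *Map3k8*, which encodes an activator of ERK in inflammatory signaling, at 1.77 ± 0.329 and 1.10 ± 0.200 TPM (log2FC -0.40, unadjusted P = 0.00634, adjusted p = 0.168 from limma). *Taok1* had the highest log2FC of the MAP3 kinases (0.30). Of 10 MAPK-activated kinases, 4 were higher and 0 lower, from *Rps6ka1* (-0.11) to *Rps6ka5* (0.36). Of 8 scaffolds, 0 passed in either direction, from *Mapk8ip1* (-0.28) to *Spag9* (0.24). With the pair as a block, 2 MAP3 kinases and 1 scaffold were lower, beside 2.80% of all genes tested. Higher with the block were 2 MAP kinases, 2 MAP kinase kinases, 7 MAP3 kinases, 4 MAPK-activated kinases and 2 scaffolds, beside 22.4%. With median-ratio scaling no gene of these 5 lists was higher at an unadjusted P under 0.05 in limma, while 1 MAP kinase, 2 MAP kinase kinases, 1 MAP3 kinase and 1 scaffold were lower, beside 4.43% of all genes tested that were higher and 6.18% that were lower.

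Other brakes on MAPK signaling and the outputs of ERK were taken from further lists, in which no gene passed an adjusted p of 0.05 in limma. Their counts at an unadjusted P under 0.05 stand beside 1.98% of all genes tested that were lower and 16.0% that were higher. Of 14 other dual-specificity phosphatases tested, 0 passed an unadjusted P of 0.05 in limma in either direction. The log2FC was above 0 for 12 and below 0 for 2, from -0.14 for *Dusp29* (listed as *Dupd1*) to 0.34 for *Dusp18*, with a median of 0.13. With median-ratio scaling 8 of the 14 were above 0 and the median was 0.021. Of 6 Sprouty and Spred genes, which encode inhibitors of the pathway between receptors and ERK, *Spry1* (log2FC 0.31, unadjusted P = 0.0243, adjusted p = 0.221 from limma) and *Spred1* were higher, and *Spry4* had the lowest log2FC (-0.22). Of the other phosphatases acting on MAPKs, the 5 that could be tested were serine and threonine phosphatases, from *Ppp2cb* (-0.018) to *Ppm1d* (0.19), and 0 passed. Of 7 ERK-output genes tested, which encode transcription factors and other products induced by ERK, 0 were lower and 1 was higher (*Epha4*, 0.22), and the list's median was -0.19, with *Phlda1* the lowest (-0.44). With median-ratio scaling, 0 genes of these 4 lists were higher at an unadjusted P under 0.05 in limma, beside 4.43% of all genes tested. On that scale 1 ERK-output gene and 1 of the serine and threonine phosphatases were lower, beside 6.18%. With the pair as a block, 1 ERK-output gene was lower, beside 2.80%. Higher with the block were 2 other dual-specificity phosphatases, 2 Sprouty and Spred genes, 1 ERK-output gene and 1 serine and threonine phosphatase, beside 22.4%.

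Immediate-early genes, which are induced by MAPK signaling as the inducible MKPs are, were lower with *Uba1* siRNAs in most cases. Of 22 tested, 15 were lower and 0 were higher at an unadjusted P under 0.05, beside 1.98% and 16.0% of all genes tested. All 22 log2FC were below 0, with a median of -0.67, compared with 0.11 for all genes tested. The list was written with earlier results of these data known and is not independent evidence of its direction. *Atf3*, which encodes a stress-induced transcription factor, had the lowest log2FC, with 116 ± 35.1 and 25.4 ± 14.1 TPM (log2FC -2.23, adjusted p = 0.0575 from limma, and 0.00663 with the pair as a block). *Myc* was at 11.0 ± 2.63 and 4.20 ± 1.44 TPM (log2FC -1.21, adjusted p = 0.0268 with the pair as a block in limma, 0.0760 without). *Srf*, which encodes the factor that binds CArG boxes, had the smallest difference of the list (log2FC -0.18). With the block, *Atf3* and *Myc* were the 2 genes of this list past an adjusted p of 0.05, as were 0.494% of all genes tested. The list summed to 1647 to 2847 TPM with NT siRNAs and to 979 to 1999 TPM with *Uba1* siRNAs. Of the MKPs, *Dusp5* (-0.60) and *Dusp2* (-0.56) were near the median of this list, while *Dusp1* (0.12), the member most often counted as an immediate-early gene, had a log2FC above those of all 22, although its interval reaches -0.42. Whether *Dusp1* differs from these genes was not tested.

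*Dusp1* is also induced by glucocorticoids, and glucocorticoid-response genes went both ways with the TPM as deposited. Of 12 tested, 2 were lower and 2 were higher at an unadjusted P under 0.05, with a median of -0.017. These counts stand beside 1.98% and 16.0% of all genes tested. With median-ratio scaling 3 were lower and 2 were higher, beside 6.18% and 4.43% of all genes tested. On that scale 2 of the 12 log2FC were above 0, and the median was -0.13. *Mt2*, which encodes a metallothionein, had the lowest log2FC (-1.41, unadjusted P = 0.00106, adjusted p = 0.129 from limma), and *Ddit4*, which encodes an inhibitor of mTORC1, had the highest (0.88, adjusted p = 0.182 from limma, and 0.0359 with the pair as a block).

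**Figure D5:**
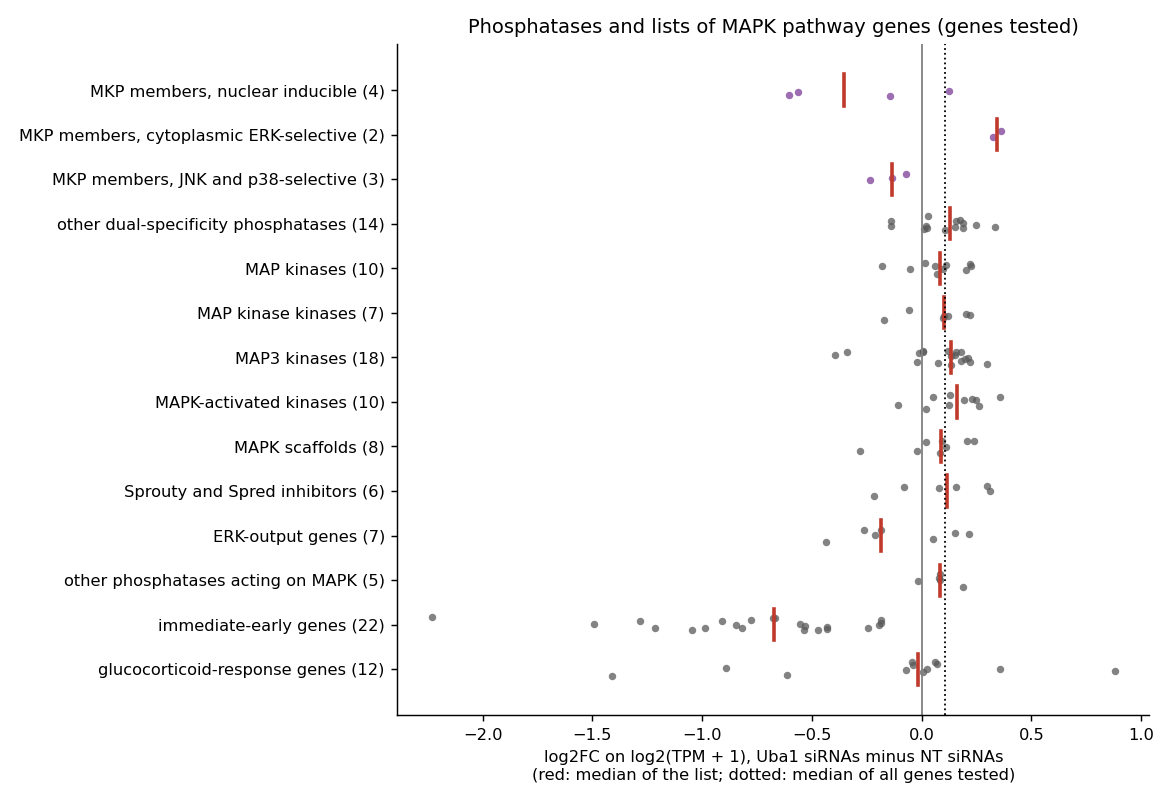
The log2FC on log2(TPM + 1) of single genes (points, horizontal axis) for the 9 phosphatases (purple, by class) and for lists of MAPK pathway genes, immediate-early genes and glucocorticoid-response genes (grey), with the number of genes tested in parentheses, the median of each list (red) and the median of all genes tested (dotted). The 22 immediate-early genes all lie below 0, with a median of -0.67, whereas the lists of MAP kinases, their activators, scaffolds and other phosphatases have medians from 0.082 to 0.13.

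Markers of other cells were compared once for the whole family. At an unadjusted P under 0.05 in limma, 1.98% of all genes tested were lower and 16.0% were higher. With the pair as a block, these shares were 2.80% and 22.4%. Endothelial markers summed to 150 to 221 TPM with NT siRNAs and to 165 to 207 TPM with *Uba1* siRNAs, and 0 of 8 passed an unadjusted P of 0.05 in limma in either direction. Fibro-adipogenic markers summed to 878 to 1475 and to 959 to 1756 TPM, with 1 of 8 higher (*Lum*), or 3 of 8 with the pair as a block. The log2FC was above 0 for 7 of these 8 under both scalings, with a median of 0.27 for the TPM as deposited. Satellite cell markers summed to 41.2 to 61.8 and to 38.9 to 74.6 TPM, with 1 of 6 lower (*Vcam1*) and 1 higher (*Chodl*), or 1 lower and 2 higher with the block. Nerve and glial markers summed to 37.8 to 61.2 and to 31.6 to 74.3 TPM, with 1 of 4 higher (*Ngfr*), or 2 with the block, and *Nefl* at 0 in all muscles. The part of such cells in the differences of the MKPs was not tested.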

How the data were processed

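The deposited values are TPM per gene, which the authors made in CLC Genomics Workbench from trimmed paired-end Illumina reads on GRCm39. The annotation, the filter on low values and the counting of reads that match several genes are not given in the sources used here. TPM sum to 1000000 in each muscle, so depth is unknown and no counting interval is given. The p-values measure the spread between 4 and 4 muscles of 4 mice.

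Genes that reached 1 TPM in 4 or more of 8 muscles were tested on log2(TPM + 1) with limma (version 3.58.1 in R 4.3.3, eBayes with a trend), without a block, with Benjamini-Hochberg adjustment over 11530 genes. On this scale the log2FC of genes with low TPM is too small. Single genes were also compared with exact permutation tests (70 splits, two-sided). Each phosphatase had 1 such test with the TPM as deposited and 1 with median-ratio scaling. Equally numbered muscles are the 2 legs of a mouse by the labels and the paper; their deviations from the group means correlated at -0.00037, 0.20, 0.58 and 0.54 in pairs 1 to 4. The limma step was tested on simulated data with independent muscles and a change larger than the log2FC of any phosphatase. That test therefore does not cover differences of their size or the pairs. Positions come from GENCODE M39.

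Named were the 9 phosphatases and *Uba1*, and for each phosphatase the 3 genes with the highest Pearson correlation. From each list other than those of cell markers, the genes with the smallest and largest log2FC and any past the adjusted p were named. Only some of the cell markers were named. Further genes named for their unadjusted P were picked once their values were known. The members and lists were chosen with earlier results of these data known. *Dusp29* and *Styxl2* were matched by their older symbols *Dupd1* and *Dusp27*, and *Spry3* was not matched. The alternatives were another pseudocount, no filter, a mean of 5 TPM or more, scaling by median ratios, by quantiles or without mitochondrial genes, the replicate block alone or with median-ratio scaling, the Kruskal-Wallis test that the study's methods name, and leaving out each muscle.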

Additional observations from a re-analysis of the deposited data

Results flagged for a closer look

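Of 20 groups of 4 muscles searched (the 9 phosphatases and *Uba1*, each in both groups), 1 had a muscle far from the others by Dixon's criterion, and about 1 is expected by chance. It is the muscle with NT siRNAs of pair 4 for *Dusp7*, at 16.0 TPM against 9.48 to 9.82 TPM in the other 3, a gap of 0.949 of the whole range. The opposite leg of the same mouse had the highest *Dusp7* level of its group, at 20.0 TPM. Without the muscle with NT siRNAs of pair 4, the log2FC of *Dusp7* was 0.50 (unadjusted P = 0.0208, adjusted p = 0.204 from limma). Without the opposite leg of that mouse instead, it was 0.16 (unadjusted P = 0.387, adjusted p = 0.583 from limma).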

How the results depend on the processing

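No phosphatase passed an adjusted p of 0.05 in limma under any of the alternatives. The Kruskal-Wallis test gives no P under 0.0209 with 4 muscles in each group. None of its values could therefore pass the adjustment over all genes tested. Among the limma fits, the lowest adjusted p was 0.0562 (*Dusp2*, without the muscle with NT siRNAs of pair 1). All genes past an adjusted p numbered 3, and they were 0 by the Kruskal-Wallis test, 11 at a mean of 5 TPM or more, 13 with TPM rescaled without mitochondrial genes, 23 after median-ratio scaling, 28 after quantile normalization, 57 with the replicate block, 76 with both the replicate block and median-ratio scaling, and 2 to 39 with each muscle left out (39 without the muscle with *Uba1* siRNAs of pair 4).

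Phosphatases lower at an unadjusted P under 0.05 numbered 2, and they were 1 by the Kruskal-Wallis test, 0 at a mean of 5 TPM or more (at which *Dusp2*, *Dusp4* and *Dusp5* were not tested), 5 with the replicate block and median-ratio scaling (beside 8.76% of all genes tested), and 2 to 3 with each muscle left out. Those higher numbered 1, and they were 2 with the replicate block (*Dusp6* and *Dusp7*, beside 22.4% of all genes tested), 2 with both the block and the scaling (6.96%), and 1 to 2 with each muscle left out (2 without the muscle with NT siRNAs of pair 4). With each muscle left out, the log2FC ranged from -0.061 to 0.27 for *Dusp1* and from -0.31 to 0.075 for *Dusp10*. It ranged from -0.25 to -0.041 for *Dusp4*, from 0.16 to 0.50 for *Dusp7* and from -0.20 to -0.00011 for *Dusp16*. For *Dusp8* the range was -0.36 to -0.12, with an unadjusted P of 0.0118 in limma without the muscle with *Uba1* siRNAs of pair 3. The sign of *Dusp1* turned without either muscle of pair 4 (log2FC -0.017 without NT siRNAs, -0.061 without *Uba1* siRNAs), and that of *Dusp10* without the muscle with *Uba1* siRNAs of pair 2 (0.075). The cause was not tested. *Dusp5* and *Dusp6* kept an unadjusted P under 0.05 in 16 of 16 and 17 of 17 alternatives. The number of muscles limits the precision.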
